A study of Mus musculus with 6 samples.

Results

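The proteasome is the barrel-shaped protease that degrades ubiquitin-tagged proteins, and the genes described here encode its constitutive subunits, its activators and its assembly factors. They were chosen by symbol, as every gene whose name begins Psma to Psmg followed by a number and that had a probe set annotated to it alone, without the interferon-inducible subunits Psmb8, Psmb9 and Psmb10. The rule found 45 of 12393 measured genes. It used no measured difference between the groups. Of the 45, 15 encode the 20S core, 17 the 19S regulatory particle, 3 the chaperones of 19S assembly and 4 those of 20S assembly, 3 encode activators and 1, Psmf1, the regulator PI31. The other 2 matched by name only: Psmc3ip encodes a meiotic recombination factor and Psme3ip1 a protein that binds the activator PA28 gamma. A probe set annotated to both Psme2 and Psme2b was left out by the rule.

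Expression was measured on Affymetrix MOE430A arrays in CD11c+ cells, magnetically selected from spleens of untreated mice of 8 weeks on the C57BL/6J background. CD11c is the integrin by which dendritic cells are selected. The 3 wild-type arrays were compared with 3 from mice hypomorphic for Atg16L1, an allele of reduced function in a gene of autophagosome formation. The labels do not give the construct of the allele or say that each array had its own animal, and every p-value here reflects only the scatter of these samples, which may be technical. No other allele or agent is named for either group. By the titles, wild-type replicate 3 was on a different array version, though the table gives it values for every probe set of the others. The title of wild-type replicate 1 holds a different number from the rest, and the labels do not say what this number stands for. The counts of members, and some of the results by gene, are also given with 1 of these arrays left out.

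Proteins enter the proteasome through the 19S particle, whose receptors bind ubiquitin chains, whose ATPase ring unfolds the substrate and whose enzyme Psmd14 cuts the chain off. The 20S core then cleaves the chain of amino acids inside a stack of alpha and beta rings. The proteasome and autophagy are the main routes by which cells break down their own proteins, and in dendritic cells the proteasome also makes the peptides shown on MHC class I. Transcription of many subunit genes is raised by NRF1, encoded by Nfe2l1, through antioxidant response elements.

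The members' promoters are shown first because a shared regulator is part of the textbook account of these genes. RefSeq windows (build GRCm38.p6, 250 bases before to 50 after a start site) were available for 37 of the 45 members, in 40 windows. The core of the antioxidant response element was searched as TGACNNNGC on both strands and occurred in 6 of the 40 windows (15.0%) and in 12.4% of all 32851 windows. None of the 6 sites overlapped another motif searched. They are given 5′ to 3′ on the strand of the gene, with the match in capitals:
Psmb5, chr14:54618024-54618052, minus strand: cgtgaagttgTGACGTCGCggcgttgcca
Psmb6, chr11:70525338-70525366, plus strand: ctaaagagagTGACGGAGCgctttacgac
Psmc6, chr14:45329587-45329615, plus strand: ccagccagtaGCTAAGTCAggcattgctc
Psmd9, chr5:123228149-123228177, plus strand: atctagccggTGACCCCGCccacttccaa
Psmd12, chr11:107479278-107479299, plus strand: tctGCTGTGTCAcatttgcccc
Psme4, chr11:30771758-30771786, plus strand: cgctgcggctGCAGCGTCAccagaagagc

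The 250 bases before the start site are given for the 3 members that passed the test below, so that their sequence can be read beside their values. Capitals mark CCAAT on either strand, the box bound by the factor NF-Y, which occurred in 14 of the 40 member windows (35.0%) and in 37.4% of all windows. The heat shock element core, GAANNTTC, occurred in 2 member windows (5.0%), those of Psmb5 and Psmf1, and in 7.86% of all. The window of Psmb3 held 2 CCAAT boxes and that of Psmd10 held 3, while none of the 3 motifs occurred in that of Psmg3.
Psmb3, chr11:97703184-97703433, plus strand: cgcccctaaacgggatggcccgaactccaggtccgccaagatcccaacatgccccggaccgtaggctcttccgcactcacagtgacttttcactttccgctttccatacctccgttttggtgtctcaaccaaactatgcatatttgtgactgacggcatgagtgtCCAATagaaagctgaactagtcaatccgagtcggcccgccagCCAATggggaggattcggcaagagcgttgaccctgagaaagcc
Psmd10, chrX:140956712-140956961, minus strand: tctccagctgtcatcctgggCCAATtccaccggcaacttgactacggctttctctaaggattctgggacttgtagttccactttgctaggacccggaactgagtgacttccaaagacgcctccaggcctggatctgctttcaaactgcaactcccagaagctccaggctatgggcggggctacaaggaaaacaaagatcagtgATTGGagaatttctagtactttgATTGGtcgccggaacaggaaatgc
Psmg3, chr5:139826895-139827144, minus strand: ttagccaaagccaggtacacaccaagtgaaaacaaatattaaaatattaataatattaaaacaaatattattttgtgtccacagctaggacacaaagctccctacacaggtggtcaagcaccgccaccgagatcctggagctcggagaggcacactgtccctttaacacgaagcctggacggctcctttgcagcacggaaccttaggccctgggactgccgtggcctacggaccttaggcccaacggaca

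Values are log2 expression per probe set, as deposited, and a gene is said to have risen or fallen where limma's Benjamini-Hochberg adjusted p over all genes was under 0.05. Atg16l1 itself was at 7.04 to 7.11 in wild type and 5.84 to 6.13 in the hypomorph (adjusted p = 0.00163). Itgax, which encodes CD11c, was at 10.20 to 10.45 and 9.87 to 10.01 and fell (adjusted p = 0.0341). The groups also differed outside the proteasome. Of 20 macrophage marker genes 18 rose and 0 fell, their mean level ranging from 8.21 to 8.86 in wild type and from 10.11 to 10.21 in the hypomorph. Of 9 B cell markers 5 fell and 0 rose, their mean ranging from 8.32 to 8.75 and from 7.75 to 8.25. Of 7 stromal markers 4 fell and 0 rose. Conventional dendritic cell markers were mixed, with 2 higher and 3 lower of 14. Of all genes tested 18.2% passed (9.76% higher, 8.47% lower). Poly-A spike-ins, bacterial RNAs mixed in ahead of labelling and read by 24 probe sets, had a mean of 8.95 to 9.96 on the wild-type arrays and of 7.58 to 7.90 on the hypomorph arrays. The part of these differences in the values below was not tested, and in such bulk samples fewer cells of a type and less RNA per cell cannot be told apart.

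Of the 45 genes, 1 rose and 2 fell, 6.67% of the members, where 18.2% of all genes tested did (9.76% higher, 8.47% lower). The assembly chaperone gene Psmd10 rose 1.32-fold, and Psmg3, also an assembly chaperone gene, and the core subunit gene Psmb3 fell 1.38-fold and 1.35-fold. The other 42 members did not pass. Before adjustment 7 of the 45 members, these 3 among them, had a p under 0.05, as did 34.0% of all genes; the other 4 were Psmb7, Psmc1, Psmd9 and Psmd12. The median log2 change of the members was 0.01 and their median change regardless of sign 0.095, against -0.05 and 0.174 over all genes. After quantile normalization of the arrays the members' median was -0.06 and that of all genes -0.04, so the sign of the members' median depends on the scaling.

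A p above the threshold does not show that a gene was unchanged, so the intervals are given as well. For 41 of the 45 members (91.1%) the 95% interval of the change, not adjusted for the number of genes, lay within 1.5-fold in either direction, as for 70.7% of all genes. For 18 members (40.0%) it lay within 1.2-fold, as for 11.8% of all genes. The 4 members whose intervals reached past 1.5-fold were Psmb3, Psmd10 and Psmg3, which passed, and the name match Psmc3ip. The members were measured with a small spread, the median SD per gene being 0.085 in wild type and 0.047 in the hypomorph, against 0.142 and 0.089 over all genes. Of the 45 chosen probe sets, 43 were brighter than the median gene.

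**Figure D1:**
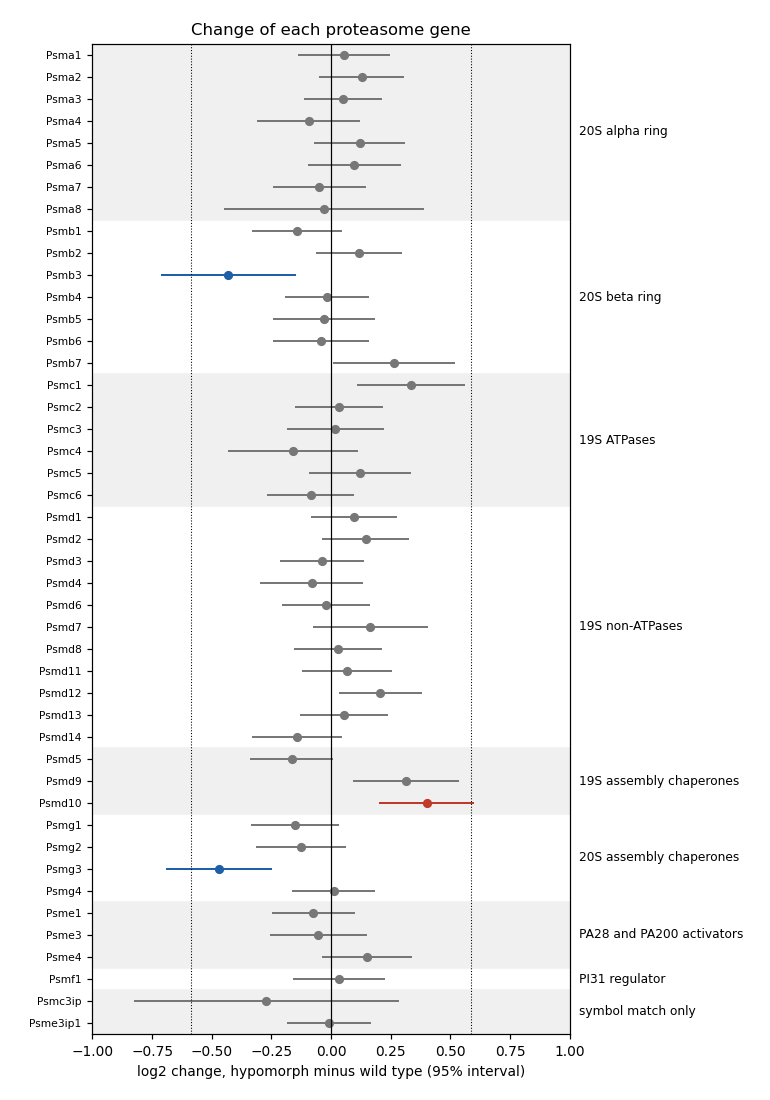
Log2 change of each of the 45 genes, hypomorph minus wild type (x axis), with its 95% interval as a bar, ordered by role (right). Red marks the gene that rose, Psmd10, blue those that fell, Psmb3 and Psmg3, and grey the 42 that did not pass; dotted lines mark 1.5-fold.

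The alpha rings gate the entry to the core. By limma 0 of the 8 alpha ring genes passed (0 with an unadjusted p below 0.05), and their changes ran from -0.09 for Psma4 to 0.13 for Psma2. Psma3, a structural alpha subunit, was at 11.39, 11.38 and 11.43 in wild type and 11.46, 11.41 and 11.48 in the hypomorph, a change of 0.05 (SE 0.068, 95% interval -0.11 to 0.21, adjusted p = 0.647). The groups overlap there. Psma2 was the alpha gene whose groups did not overlap, at 10.51, 10.43 and 10.47 against 10.55, 10.68 and 10.56 (adjusted p = 0.276). Psma1, Psma5, Psma6 and Psma7 changed by 0.05, 0.12, 0.10 and -0.05, all with overlapping groups and none past the threshold. Psma8, which encodes the alpha subunit of testis proteasomes, was dim, at 4.20 to 4.78 in wild type and 4.24 to 4.60 in the hypomorph.

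The beta rings hold the proteolytic sites. Psmb3, which encodes a beta subunit without catalytic activity, was at 10.77, 10.33 and 10.48 in wild type and 10.13, 10.10 and 10.06 in the hypomorph. All 3 hypomorph arrays were below all wild-type arrays, and wild-type replicate 1 was the highest. The change was -0.43 (SE 0.118, adjusted p = 0.0462). A dimmer probe set of Psmb3 gave 9.51, 9.36 and 9.49 against 9.41, 9.39 and 9.40, a change of -0.06 with overlapping groups, so the probe sets of this gene disagree. Without wild-type replicate 1 the change was -0.31 (adjusted p = 0.0482). With both probe sets averaged the change was -0.24 and the call was lost (adjusted p = 0.103). It was also lost after centring on array medians (adjusted p = 0.0566), without wild-type replicate 3 (0.0861) and without hypomorph replicate 1, 2 or 3 (0.116, 0.134 and 0.143).

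The catalytic beta subunits are encoded by Psmb5, whose site is chymotrypsin-like, Psmb6, caspase-like, and Psmb7, trypsin-like, and none passed. Psmb5 was at 9.40, 9.21 and 9.16 in wild type and 9.26, 9.24 and 9.18 in the hypomorph (log2 change -0.03, 95% interval -0.24 to 0.18). Psmb6 was at 9.43, 9.25 and 9.21 against 9.24, 9.25 and 9.27 (-0.04, 95% interval -0.24 to 0.15). In both genes the hypomorph arrays lie inside the wild-type range. Psmb7 was at 7.73, 7.61 and 7.98 against 8.07, 8.04 and 8.01, with no overlap but a wide wild-type spread (0.26, SE 0.106, adjusted p = 0.13), and it passed without wild-type replicate 3 (0.37, adjusted p = 0.0415). Of the non-catalytic genes Psmb1, Psmb2 and Psmb4, the changes were -0.14, 0.12 and -0.02, the groups not overlapping for the first 2.

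In cells exposed to interferon gamma the catalytic subunits are exchanged for Psmb8 in place of Psmb5, Psmb9 in place of Psmb6 and Psmb10 in place of Psmb7. By limma 0 of these 3 genes passed (0 with an unadjusted p below 0.05), with changes of -0.07, -0.17 and 0.01. The change of each inducible gene relative to its constitutive partner was compared by a two-sided exact permutation test over arrays, for which 3 against 3 arrays cannot give a p below 0.1. The within-array difference Psmb9 minus Psmb6 was lower in all 3 hypomorph arrays by 0.13 (SE 0.024; exact p = 0.1, adjusted over the 3 pairs 0.3). For Psmb8 minus Psmb5 it differed by -0.04 (SE 0.046, exact p = 0.4, adjusted 0.4), and for Psmb10 minus Psmb7 by -0.25 (SE 0.159, exact p = 0.3, adjusted 0.4). No pair passed, and for the last, wild-type replicate 3 lay among the hypomorph arrays. Without that array the difference of this pair was -0.41 and its groups did not overlap.

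**Figure D2:**
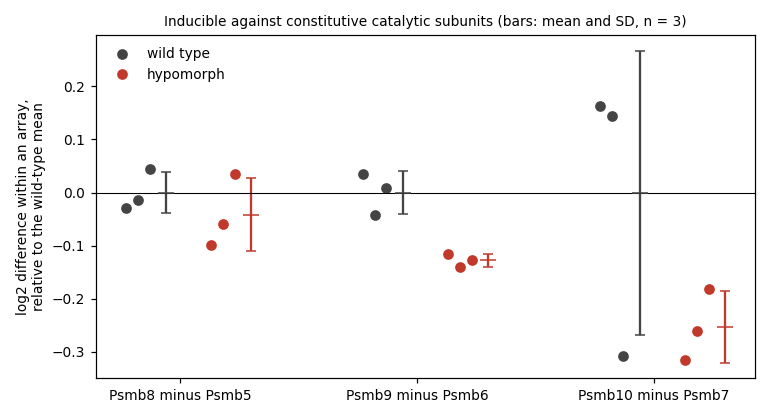
Within-array log2 difference between each inducible and constitutive catalytic subunit gene (y axis), set to 0 at the wild-type mean, for 3 pairs (x axis); points are arrays and bars the mean and SD (n = 3). The groups are separate for Psmb9 minus Psmb6 (-0.13) and overlap for the other 2 pairs.

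The base of the 19S particle is a ring of 6 ATPases that unfold the substrate, encoded by Psmc1 to Psmc6, and by limma 0 passed (1 with an unadjusted p below 0.05). Psmc1 came closest, at 8.31, 8.00 and 8.14 in wild type and 8.50, 8.48 and 8.48 in the hypomorph. The hypomorph arrays are all above the wild-type arrays and close together (0.33, SE 0.094, adjusted p = 0.0506), and the gene passed without wild-type replicate 1 (0.41, adjusted p = 0.0199). Its other probe set was dim, at 2.39 to 2.58 over all arrays, and changed by 0.03. With both probe sets of Psmc1 averaged the change was 0.18 (adjusted p = 0.171). Psmc4 varied most within the hypomorph, at 9.37, 9.74 and 9.64 against 9.78, 9.65 and 9.79 in wild type (-0.16, adjusted p = 0.37). Psmc2, Psmc3, Psmc5 and Psmc6 changed by 0.03, 0.02, 0.12 and -0.08, with overlapping groups.

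Of the 11 non-ATPase genes of the 19S particle, 0 passed by limma (1 with an unadjusted p below 0.05), and the changes ran from -0.14 for Psmd14 to 0.21 for Psmd12. Psmd12, which encodes a scaffold subunit of the lid, was at 8.39, 8.46 and 8.49 against 8.70, 8.62 and 8.64, the hypomorph above wild type on every array (adjusted p = 0.0906). Psmd14, the deubiquitinase, was at 10.28, 10.27 and 10.43 against 10.17, 10.22 and 10.15, the hypomorph below on every array (adjusted p = 0.247). The ubiquitin receptor gene Psmd4 changed by -0.08 and the genes of the large scaffolds Psmd1 and Psmd2 by 0.10 and 0.15. The groups did not overlap for Psmd1 and Psmd2 either, and overlap for Psmd4. The lid genes Psmd3, Psmd6, Psmd7, Psmd8, Psmd11 and Psmd13 changed by -0.04, -0.02, 0.16, 0.03, 0.07 and 0.05, with overlapping groups.

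The gene that rose and one of the 2 that fell encode assembly factors. The base of the 19S particle is put together by chaperones that hold the ATPases, among them Psmd10, also called gankyrin, which binds Psmc4. Psmd10 was at 7.21, 7.34 and 7.39 in wild type and 7.72, 7.77 and 7.65 in the hypomorph. The groups are well apart, and the change was 0.40 (SE 0.081, adjusted p = 0.0192). It did not pass without hypomorph replicate 1, 2 or 3 (adjusted p = 0.0693, 0.0846 and 0.0625). Psmd9, which chaperones another part of the base, was at 6.12, 6.08 and 6.24 against 6.60, 6.40 and 6.38, above on all hypomorph arrays without passing (0.31, adjusted p = 0.058). Psmd5, the other base chaperone gene among the members, was at 7.57, 7.59 and 7.50 against 7.44, 7.37 and 7.35 (-0.16, adjusted p = 0.158). For these 3 base chaperone genes the groups did not overlap, as for 41.0% of all genes, Psmd5 being lower and the others higher.

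The alpha ring of the core is built with the help of chaperone pairs, Psmg1 with Psmg2 and Psmg3 with Psmg4. Psmg3 was at 8.16, 7.97 and 7.90 in wild type and 7.61, 7.49 and 7.52 in the hypomorph. The hypomorph arrays are all lower, and the change was -0.47 (SE 0.092, adjusted p = 0.0172). The call was lost without hypomorph replicate 2 or 3 (adjusted p = 0.0749 and 0.0771) and kept without replicate 1 (0.0493). Its partner Psmg4 was at 7.78, 7.82 and 7.75 against 7.82, 7.73 and 7.83, with overlapping groups (0.01, adjusted p = 0.933), and the difference between these changes was not tested. Psmg1 and Psmg2 changed by -0.15 and -0.12 without passing, Psmg1 with groups that did not overlap.

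**Figure D3:**
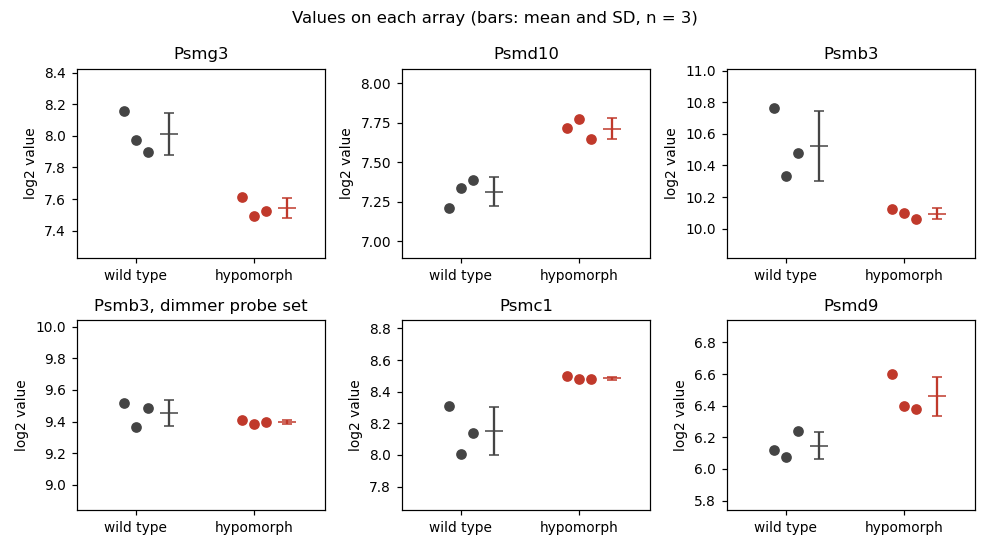
Log2 values on each array (y axis, the same span in every panel) for Psmg3, Psmd10, both bright probe sets of Psmb3, Psmc1 and Psmd9; points are arrays and bars the mean and SD (n = 3). The groups are separate in every panel except that of the dimmer probe set of Psmb3, where the change was -0.06.

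Activators open the core without ubiquitin. Psme1, which encodes PA28 alpha, was at 11.34, 11.31 and 11.26 in wild type and 11.17, 11.24 and 11.28 in the hypomorph (-0.07, adjusted p = 0.513), with overlapping groups. Psme3, for the nuclear activator PA28 gamma, changed by -0.05 and Psmf1, for PI31, by 0.03. Psme4, which encodes PA200, was at 8.72, 8.82 and 8.87 against 9.02, 8.90 and 8.95, above on every hypomorph array without passing (0.15, adjusted p = 0.22). A dimmer probe set of Psme4 passed, at 8.18, 8.28 and 8.25 against 8.51, 8.50 and 8.57 (0.29). Of the name matches, Psmc3ip spread widely in wild type, at 6.28, 5.28 and 5.83, against 5.59, 5.41 and 5.57, and Psme3ip1 changed by -0.01.

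For 16 of the 45 members (35.6%) the arrays of the groups did not overlap, 10 with the hypomorph above and 6 below, against 41.0% of all genes (18.5% above, 22.5% below). Among the 13 of these 16 that did not pass, the largest changes were those of Psmc1 (0.33), Psmd9 (0.31) and Psmb7 (0.26). Wild-type replicate 2 was the lowest wild-type array for 27 of 45 members and replicate 1 the highest for 25. The members' mean distance from the wild-type mean was 0.06 in wild-type replicate 1, -0.07 in replicate 2 and 0.01 in replicate 3, and 0.03, 0.00 and -0.01 in hypomorph replicates 1, 2 and 3. Over all members the hypomorph arrays thus lay inside the range of the wild-type arrays. For the 15 core genes these means were 0.09, -0.08 and 0.00 in wild type and 0.01, 0.01 and -0.02 in the hypomorph. For the 17 genes of the 19S particle they were 0.04, -0.06 and 0.02 against 0.06, 0.04 and 0.03, so that hypomorph replicate 1 lay above every wild-type array and the other 2 lay within their range.

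**Figure D4:**
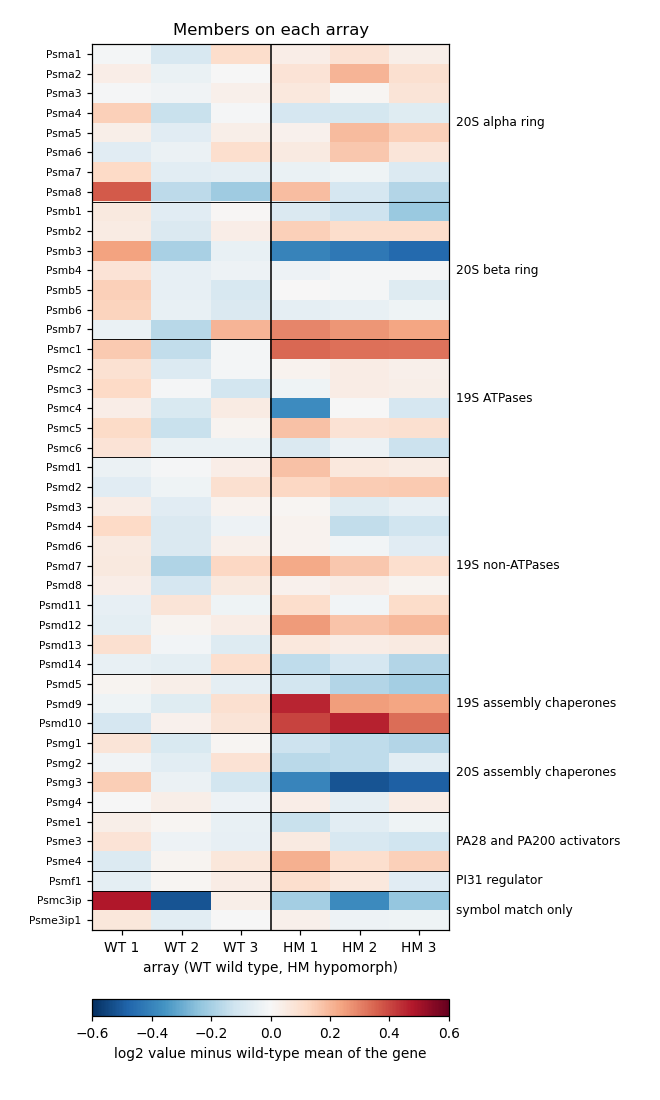
Log2 value of each gene minus its wild-type mean (colour) on each array (columns), with the 45 genes in rows by role. Psmb3 and Psmg3 are blue and Psmd10 is red on all 3 hypomorph arrays, and wild-type replicate 2 is pale blue for most genes.

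Values and overlaps given by gene above are those of the brightest probe set, unless another is named. The other probe sets of the members gave further readings. Of the members 24 had a single probe set and 21 had others, 37 in all. When every probe set was tested on its own, 3 of these 37 rose and 3 fell (16.2%). Of the 7986 probe sets of all genes that were likewise not the brightest of their gene, 17.2% passed. Of the 6, 4 were dimmer than the median probe set: 2 of Psma1 rose (0.68 and 0.88) and those of Psma5 and Psma6 fell (-0.45 and -0.77), while the bright probe sets of these genes did not pass. The brighter ones were that of Psme4 given above and one of Psmd7. That of Psmd7, for a 19S lid subunit, was at 6.99, 6.73 and 6.90 against 6.22, 6.16 and 6.13 (-0.70), whereas the main probe set was at 7.01, 6.77 and 7.08 against 7.18, 7.12 and 7.06 (0.16). The main probe set did not pass and its groups overlap, and the remaining probe set, at 2.54 to 2.93 over all arrays, did not pass either (-0.12), so the fall was seen on 1 of the 3 probe sets of Psmd7. Probe sets that did not pass could differ from the main one too. On a dimmer probe set of Psma5 (0.23), Psmc6 (0.25) and Psmd4 (0.23) all hypomorph arrays were above wild type. On one of Psmd11 (-0.31) all were below. The main probe sets of these genes had overlapping groups, and those of Psmc6, Psmd4 and Psmd11 changed in the opposite direction. Which transcripts these probe sets detect was not analysed here.

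Genes that work with the proteasome but lie outside the rule were read from 3 lists, in which 4 of 26 genes passed (15.4%), against 18.2% of all genes. Of 10 measured genes for further subunits and partners, 1 rose and 0 fell. It was Zfand5, which encodes a zinc finger protein that binds and stimulates the proteasome, at 10.27, 10.67 and 10.86 in wild type and 11.72, 11.66 and 11.68 in the hypomorph. All hypomorph arrays are far above wild type (1.09, SE 0.146, adjusted p = 0.00489). Next by p was Txnl1, a thioredoxin-like protein of the 19S particle (0.22, adjusted p = 0.114). Of 8 genes of proteasome transcription, 1 fell and 0 rose. It was Nfyb, which encodes a subunit of NF-Y, at 7.36, 7.20 and 7.40 against 6.91, 6.91 and 6.91 (-0.41, adjusted p = 0.0167). It did not pass without hypomorph replicate 1, 2 or 3 (adjusted p = 0.0617, 0.071 and 0.0743). Nfe2l1, for NRF1, was at 8.19, 8.38 and 8.08 against 8.46, 8.36 and 8.49 and did not pass (0.22, adjusted p = 0.163).

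Of 8 genes of ubiquitin shuttling and extraction, 2 rose and 0 fell, where 18.2% of all genes passed in either direction. Nploc4, a cofactor of the unfolding ATPase VCP, was at 6.25, 6.25 and 6.38 against 6.74, 6.57 and 6.87 (0.43, adjusted p = 0.0262), and did not pass without hypomorph replicate 1 or 3 (adjusted p = 0.0855 and 0.0977) or wild-type replicate 1 or 2 (0.0534 and 0.0513). Rad23b, which carries ubiquitinated proteins to the proteasome, was at 8.26, 8.37 and 8.33 against 8.62, 8.64 and 8.54 (0.28, adjusted p = 0.0415), a call lost when any 1 array was left out (0.0516 to 0.148) and after quantile normalization (0.0605). For both genes all hypomorph arrays were above all wild-type arrays.

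Other protein-folding genes are set beside the members as values, and no difference between the groups of genes was tested. The TRiC chaperonin, a large complex that folds actin and tubulin, had 2 of 8 genes lower and 0 higher, with a median change of -0.17. Its largest change was in Cct7 (-0.44, adjusted p = 0.00916; 0.0541 without hypomorph replicate 3). Heat shock genes, targets of the factor HSF1, had 10 of 11 lower, with a median of -1.82 and the largest change in Dnajb1 (-2.93). Of all genes tested, 8.47% were lower and 9.76% higher. The median of the proteasome members was 0.01. Relative to the wild-type mean, replicate 1 of that group had a mean of -0.72 over the heat shock genes and of 0.06 over the proteasome members.

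**Figure D5:**
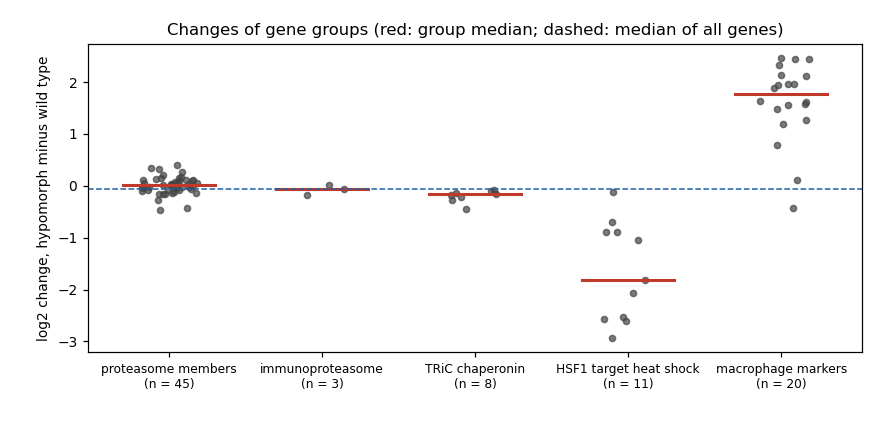
Log2 change, hypomorph minus wild type (y axis), of single genes (points) in 5 groups (x axis), with the group median in red and the median of all genes dashed. The 45 proteasome genes lie between -0.47 and 0.40 around a median of 0.01, and the 11 heat shock genes around -1.82.

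The counts depended on single arrays. Leaving out wild-type replicate 1, 2 or 3 gave 4, 3 and 3 members past the threshold, of 2084, 2272 and 1795 genes. Leaving out hypomorph replicate 1, 2 or 3 gave 1, 0 and 0, of 950, 834 and 742 genes, with 5, 6 and 5 members at an unadjusted p under 0.05 in limma. In each of these 6 fits the share of members called was under that of all genes. With the spike-in level of each array as a covariate, 0 members and 0 genes passed by limma (1 and 1149 with an unadjusted p below 0.05), and Psmd10, Psmb3 and Psmg3 changed by 0.14, -0.0013 and 0.0026 (adjusted p = 0.888, 0.999 and 0.999). Standard errors were then 2.96 times as large in the median, and the spike-in level does not overlap between the groups. When dim genes were left out, more members passed: 5 of 45 above the lower quartile of level, where 27.3% of all genes did, and 6 of 43 above the median, where 39.3% did. The genes added were Psmc1 and Psmd9, and above the median also Psmd12.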

How the data were processed

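Expression was deposited as log2 values, 1 for each probe set on each array. Affymetrix Power Tools is named in the submitters' processing notes; its version, summarization and normalization are not stated there. The base of the deposited log2 values was inferred from their range (1.96 to 14.33). Array medians of 5.65 to 5.71 point to normalization between arrays, which hides differences in total RNA. Precision is limited by the number of arrays.

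Gene names come from the platform annotation. Of 22690 probe sets, 20379 named 1 gene, and for each of 12393 genes the brightest of these on average was used. Genotypes were compared by lmFit and eBayes of limma 3.58.1 (R 4.3.3), two-sided and with no covariate or filter; the fit was tested on simulated data. Tables and plots used Python 3.11.15, pandas 2.3.3 and matplotlib 3.10.9.

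The members and gene lists were chosen with earlier results of these data known. Every member is reported. Of other lists, genes past the threshold and the 2 of smallest p are named, and of the TRiC and heat shock lists the gene of largest change. For marker lists not given above, genes higher and lower were 2 and 1 of 6 for plasmacytoid dendritic cells and 1 and 1 of 8 for neutrophils. They were 1 and 0 of 7 for erythroid cells, 0 and 2 of 5 for platelets and 0 and 1 of 4 for plasma cells. Over all genes tested, 9.76% were higher and 8.47% lower. For 7 T cell and 7 NK cell genes limma called 0 (0 and 1 with an unadjusted p below 0.05). Alternatives covered probe set choice, filters, scaling, the fit, a replicate block, a spike-in covariate, which was known from the earlier results, and leaving out each array.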

Additional observations from a re-analysis of the deposited data

How the results depend on the processing

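The count of members past the threshold was 2 to 4 in the other fits on all arrays, but 5 with a filter at the lower quartile of level, 6 with one at the median, 1 with the replicate number as a block, and 0 with a minimum change of 1.5-fold or the spike-in covariate (0 and 1 members with an unadjusted p below 0.05 in limma). The genes called numbered 1231 with the block, 127 with the minimum change and 0 with the covariate (1149 unadjusted), against 2260. Leaving out each array gave 0 to 4 members and 742 to 2272 genes. The cause of these shifts was not tested.

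The labels do not say that the replicate numbers pair the arrays. Same-numbered arrays' deviations from their group means correlated at 0.15, 0.01 and 0.11, and those of arrays with unlike numbers at -0.17 to 0.14. These values do not settle whether the arrays were paired. Of the members Psmg3 alone passed with the replicate block (adjusted p = 0.0407), and outside them the calls of Nfyb (0.0533) and Rad23b (0.107) were lost. Wild-type replicate 1 correlated best with hypomorph replicate 1, wild-type replicate 2 with hypomorph replicate 3 and wild-type replicate 3 with hypomorph replicate 2.

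Psmd10 kept its direction in all alternatives. Psmb3 also kept its direction, though it was near 0 in the covariate fit (-0.0013). Psmg3 kept its direction apart from that fit, where it was near 0 with the opposite sign (0.0026). The values that changed sign all had adjusted p-values of at least 0.103. With all probe sets of a gene averaged these were Psma5 (-0.034), Psma6 (-0.18), Psmb4 (0.051), Psmc6 (0.15), Psmd4 (0.063), Psmd7 (-0.22), Psme3 (0.076) and Psmf1 (-0.039), and Psma1 passed (0.54, adjusted p = 0.00935). After quantile normalization they were Psma1 (-0.037), Psma3 (-0.085), Psma8 (0.020), Psmc2 (-0.054), Psmc3 (-0.060), Psmd8 (-0.047), Psmd11 (-0.013), Psmg4 (-0.034) and Psmb10 (-0.048). With array weights they were Psma8 (0.034), Psmb4 (0.0069), Psmb5 (0.0093), Psmb6 (0.0033) and Psmf1 (-0.0046).

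With the spike-in covariate the changed signs were those of Psma1 (-0.18), Psma3 (-0.0012), Psma4 (0.10), Psma6 (-0.22), Psma7 (0.22), Psma8 (1.05), Psmb4 (0.13), Psmb5 (0.37), Psmb6 (0.28), Psmb7 (-0.13), Psmb8 (0.15), Psmb9 (0.20), Psmc3ip (0.37), Psmc6 (0.10), Psmd2 (-0.14), Psmd3 (0.028), Psmd4 (0.24), Psmd5 (0.0081), Psmd6 (0.036), Psmd8 (-0.023), Psme3 (0.25), Psme3ip1 (0.12), Psme4 (-0.015), Psmf1 (-0.054), Psmg3 (0.0026) and Txnl1 (-0.012).

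Leaving out 1 array changed the sign of Psma7 (-0.080 to 0.0093), Psma8 (-0.14 to 0.15), Psmb4 (-0.041 to 0.024), Psmb5 (-0.078 to 0.043), Psmb6 (-0.085 to 0.024), Psmb10 (-0.039 to 0.074), Psmc2 (-0.0073 to 0.078), Psmc3 (-0.037 to 0.077), Psmd6 (-0.064 to 0.0059), Psmd8 (-0.020 to 0.058), Psme3ip1 (-0.041 to 0.025), Psmf1 (-0.00067 to 0.084) and Psmg4 (-0.0067 to 0.043). The catalytic pair differences kept their sign with each array left out and in the alternatives for which the pairs were recomputed. The spike-in covariate was not among these. In the single-gene fits with it Psmb7 changed by -0.13 and Psmb10 stayed positive, the reverse of the reported sign for Psmb10 minus Psmb7.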
